A study of Homo sapiens with 7 samples.

Results

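The genes examined here carry the death signals of the ligands TRAIL and FAS ligand, and comprise 10 genes: the TRAIL receptors TNFRSF10A, TNFRSF10B, TNFRSF10C and TNFRSF10D, the receptor FAS, the ligand TNFSF10 (TRAIL itself), the adaptor FADD, the initiator caspases CASP8 and CASP10, and the inhibitor CFLAR. They were taken by gene symbol, through the accession attached to each array feature, a feature being a probe printed on 1 or more spots. The group was chosen by a measured value as well as by function, because TNFRSF10D had a high value on the PARN shRNA array. That value is therefore described and given no p. The 10 genes had 17 features on 46 spots, out of 42405 gene features, of which 24827 could be named and covered 19063 genes. Of the 17 features, 14 were above background on all 7 arrays, 16 on at least 2 arrays, and the remaining feature, for FAS, on none.

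The cells were NCI-H520, an established human line of squamous lung carcinoma origin, and the study asked which mRNAs change when deadenylases, the enzymes that shorten poly(A) tails, are silenced. Total RNA from each group was hybridised to 1 single-colour array. All 7 groups were transfected in liposomes with 6 µg of a pLKO.1 plasmid, exposed to puromycin at 6 µg/mL from 12 h after transfection and harvested at 72 h. The control groups received the empty vector or a non-target shRNA, and the other 5 groups received an shRNA against PARN, CNOT6, CNOT6L, CNOT7 or NOC (nocturnin, gene symbol NOCT). These were short transfections of 1 line, not stable clones. Per the labels, the CNOT6L and NOC plasmids carry the same target accession, so which sequence the CNOT6L plasmid held is uncertain.

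TRAIL and FAS ligand bind receptors that carry an intracellular death domain. The bound receptors recruit FADD, which brings procaspase-8 and procaspase-10 together so that they activate each other, and the protein made from CFLAR, known as c-FLIP, competes for a place in the same complex. TNFRSF10C and TNFRSF10D bind TRAIL without passing on a full death signal, since the former lacks a death domain and the latter has a truncated one, and are called decoy receptors. In the reference gene order TNFRSF10B, TNFRSF10C, TNFRSF10D and TNFRSF10A are neighbours on chromosome 8, and CFLAR, CASP10 and CASP8 are neighbours on chromosome 2.

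With 1 array per group no difference between groups had a replicate check, and spots of 1 array show printing error only. The 75th percentile of signal was lowest with CNOT6 shRNA (1360.2) and highest with CNOT7 shRNA (3938.9), and 82.0% to 91.4% of features were above background. Each targeted mRNA was lowest on its own array. PARN was at 45.7% of the mean of the controls, CNOT6 at 89.6%, CNOT6L at 63.0%, CNOT7 at 54.5% and NOCT at 74.8%. The controls, PARN shRNA and CNOT6 shRNA arrays lay in 1 row of the slide. The CNOT6L, CNOT7 and NOC shRNA arrays lay in the other row, which held no control, so that slide row and difference from the controls cannot be told apart for these 3 arrays. Of 9 squamous epithelial markers 5 were above background on all arrays, with SOX2 and EPCAM among them, while TP63, KRT5 and KRT14 were above background on 2, 4 and 1 arrays and DSG3 on none. All 4 leukocyte markers with a feature, all 4 endothelial markers and 3 of 5 fibroblast markers were also above background on all arrays, and CD14 had a processed signal of at least 17381. Low processed signals also bore the above-background mark, at 11.5 to 33.8 for KRT17, 30.1 to 127.0 for CD3E and 23.9 to 67.7 for KDR. By itself the mark therefore does not show that a cell type was present. In RNA pooled from many cells, a lower share of cells with an mRNA and less of it per cell cannot be told apart.

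Levels are on the log2 scale, as the processed signal relative to the array's own 75th percentile, so that a level of 0 equals that percentile. Levels of different features are not compared, since features differ in how well they bind. Without scaling all features of an array shift together against the mean of the controls, from -1.005 with CNOT6 shRNA to 0.53 with CNOT7 shRNA. Signs given without scaling therefore depend in part on the brightness of the whole array. A feature was called for an shRNA when it was at least 2-fold higher, or at least 2-fold lower, than the empty-vector array and also than the non-target array, with the brighter side above background. By this rule 1 of the 17 features was called for PARN shRNA, that of TNFRSF10D, where 0.737% of all features were called. Because the TNFRSF10D value helped to choose the genes, this count is no test against that share. It rested on 1 spot, and with the first spot alone the count was 0. None was called for CNOT6 shRNA (0.642% of all features), CNOT6L shRNA (1.01%), CNOT7 shRNA (1.35%) or NOC shRNA (1.76%). The empty-vector and non-target arrays themselves differed at least 2-fold for 16.5% of all features and for 1 of the 17, again that of TNFRSF10D.

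**Figure D1:**
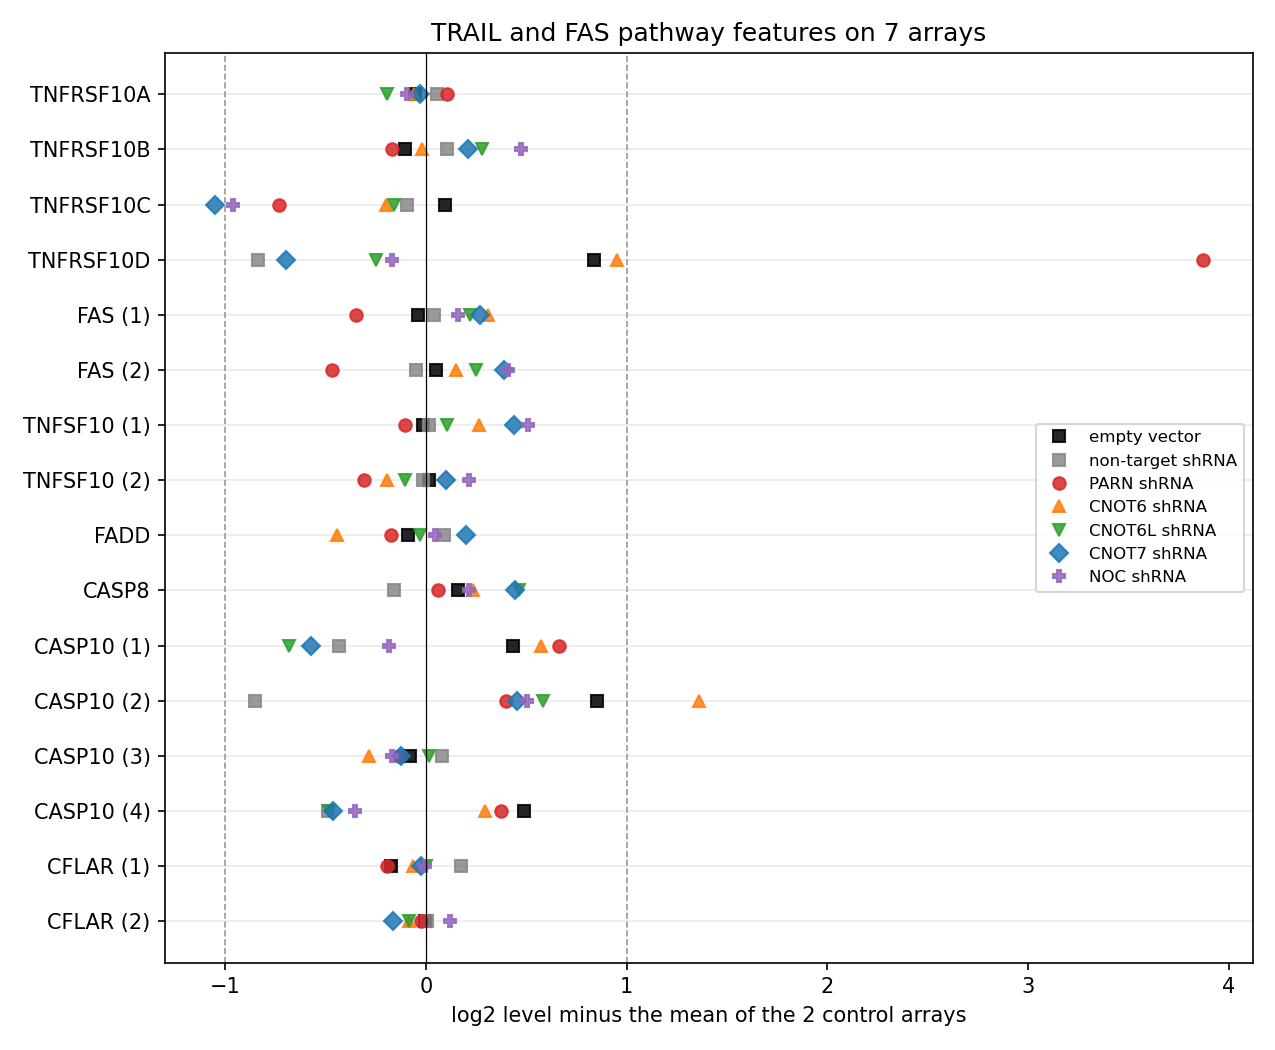
Log2 level of each feature above background on at least 2 arrays, minus the mean of the empty-vector and non-target arrays (x axis), for the 10 genes (y axis), with 1 symbol per array, dashed lines at a 2-fold difference, and numbers in brackets for features of 1 gene; TNFRSF10C with PARN and NOC shRNA and CASP10 feature 2 on 5 arrays are not above background. TNFRSF10D on the PARN shRNA array lies at 3.87, and the only other value more than 1 above the mean of the controls is CASP10 feature 2 on the CNOT6 shRNA array, at 1.36.

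Among the receptors that pass on the death signal, TNFRSF10A (death receptor 4) was the steadiest. Its level was -1.33 with empty vector, -1.22 with non-target shRNA, -1.17 with PARN shRNA, -1.33 with CNOT6 shRNA, -1.47 with CNOT6L shRNA, -1.31 with CNOT7 shRNA and -1.37 with NOC shRNA. These levels covered 0.30 log2 in all, a 1.23-fold range, and the array spots differed by up to 0.18 (SD of 2 spots). Most neighbours in the order of the arrays were closer than that.

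TNFRSF10B (death receptor 5) was above the controls on the 3 arrays of the slide row without controls. Its level was 2.05 with empty vector, 2.26 with non-target shRNA, 1.99 with PARN shRNA, 2.14 with CNOT6 shRNA, 2.44 with CNOT6L shRNA, 2.37 with CNOT7 shRNA and 2.63 with NOC shRNA. The NOC shRNA array was highest, at 139% of the mean of the controls, and the CNOT6L and CNOT7 shRNA arrays stood at 121% and 116%. The printing SD of its 2 spots was at most 0.11 on any array. Against the mean of its slide-row mates the NOC shRNA array differed by 0.23, the CNOT6L shRNA array by -0.06 and the CNOT7 shRNA array by -0.16. The 3 arrays stayed above the mean of the controls under quantile normalization and normexp background correction. Leaving out scaling raises all features of these arrays relative to the controls, by 0.40, 0.53 and 0.21 with CNOT6L, CNOT7 and NOC shRNA. That setting could not lower them and was no check.

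FAS, the receptor of FAS ligand, had 3 features. The one printed on 10 spots (A_23_P63896) had a level of -5.50 with empty vector, -5.42 with non-target shRNA, -5.81 with PARN shRNA, -5.15 with CNOT6 shRNA, -5.24 with CNOT6L shRNA, -5.19 with CNOT7 shRNA and -5.30 with NOC shRNA. The PARN shRNA array was lowest, with differences of -0.31 from empty vector and of -0.39 from non-target shRNA, whereas the other 4 shRNA arrays lay above both controls by 0.12 to 0.35. The SD among the 10 spots ran from 0.11 with CNOT7 shRNA to 0.28 with PARN shRNA. On the PARN shRNA array the spots covered -6.30 to -5.52, and on the empty-vector array -5.72 to -5.30, so the spots of these arrays overlapped.

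The FAS feature printed on 2 spots (A_33_P3381127) gave the same order of the PARN shRNA array. Its level was -6.11 with empty vector, -6.21 with non-target shRNA, -6.63 with PARN shRNA, -6.01 with CNOT6 shRNA, -5.91 with CNOT6L shRNA, -5.77 with CNOT7 shRNA and -5.75 with NOC shRNA. With PARN shRNA it stood at 72.3% of the mean of the controls, against 78.5% for the feature on 10 spots. Both features are dim, and their direction rested on the background correction. With normexp correction the PARN shRNA differences became 0.00 for the feature on 10 spots and 0.09 for the feature on 2 spots, and those of CNOT7 shRNA became -0.09 and -0.11. Without scaling the CNOT6 shRNA array lay below the mean of the controls for both features, and with quantile normalization its difference was -0.03 for the feature on 2 spots. The third feature (A_33_P3332112) failed to reach the above-background mark on all 7 arrays, so that it has only a bound.

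**Figure D2:**
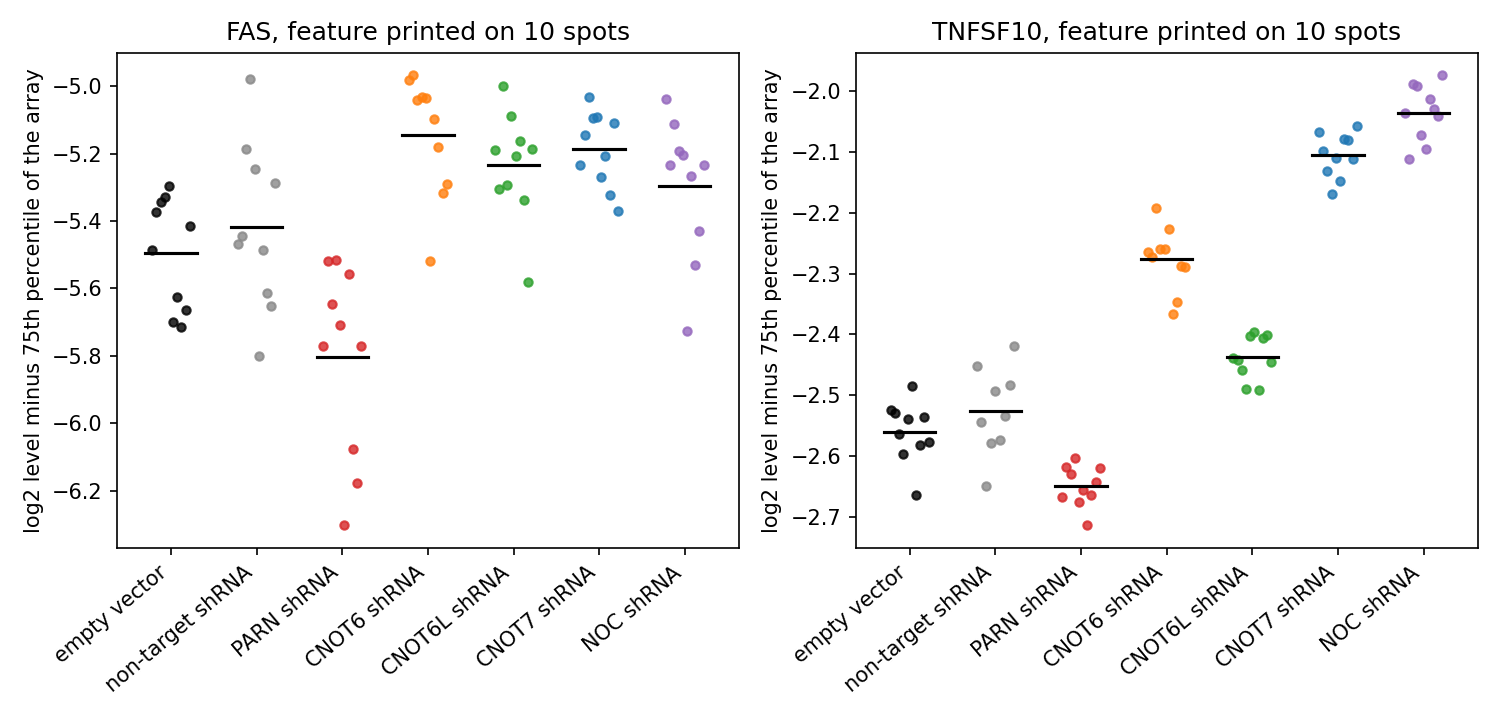
Log2 level minus the 75th percentile of the array (y axis) for each of the 10 spots of the FAS feature (left) and of the TNFSF10 feature (right) on each array (x axis), spots marked as outliers left out, with a line at the mean of the spots. FAS spots overlap between the PARN shRNA array and the controls, whereas TNFSF10 spots on the CNOT6, CNOT7 and NOC shRNA arrays lie above those of the controls.

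TNFRSF10C, a decoy receptor attached to the membrane by a lipid anchor, was near background throughout. Its level was -7.22 with empty vector, -7.40 with non-target shRNA, -8.04 with PARN shRNA, -7.51 with CNOT6 shRNA, -7.47 with CNOT6L shRNA, -8.36 with CNOT7 shRNA and -8.27 with NOC shRNA. It was above background on 5 arrays and not well above background with PARN and NOC shRNA, where the measured values are only a bound and have no order. The CNOT7 shRNA array, with 1 of its 2 spots above background, differed by -1.15 from empty vector and by -0.96 from non-target shRNA. The CNOT6 and CNOT6L shRNA arrays were below both controls by smaller amounts, and their differences from the mean of the controls turned to 0.73 with normexp correction and to 0.24 without scaling, respectively. The SD between its 2 spots reached 0.90 with CNOT6 shRNA and 0.62 with CNOT7 shRNA, as large as most of the differences.

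TNFRSF10D, the decoy with a truncated death domain, carried the value for which these genes were chosen. Its level as the mean of 2 spots (A_33_P3326588) was -5.81 with empty vector, -7.49 with non-target shRNA, -2.78 with PARN shRNA, -5.70 with CNOT6 shRNA, -6.90 with CNOT6L shRNA, -7.34 with CNOT7 shRNA and -6.82 with NOC shRNA. The PARN shRNA array was 8.19-fold above the empty-vector array and 26.2-fold above the non-target array. On the non-target array only 1 of the 2 spots was well above background, so the ratio to that array is uncertain. The other 6 arrays covered -7.49 to -5.70, and their range was set by the controls as much as by the shRNAs, since the controls differed from each other by 1.68.

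The spots of TNFRSF10D on the PARN shRNA array differed widely. The processed signal of spot 1 was 61.5 with empty vector, 11.9 with non-target shRNA, 38.5 with PARN shRNA, 22.8 with CNOT6 shRNA, 29.4 with CNOT6L shRNA, 24.2 with CNOT7 shRNA and 27.7 with NOC shRNA. That of spot 2, on the same arrays in the same order, was 54.2, 13.8, 2613, 30.2, 31.0, 24.3 and 28.3. Spot 2 was thus the only bright spot, and spot 1 of the PARN shRNA array lay between the controls. On the level scale spot 1 with PARN shRNA differed by -0.10 from the empty-vector array and by 1.77 from the non-target array, and spot 2 by 6.17 and 7.65. Spot 1 of the non-target array was not well above background, so the 1.77 is uncertain.

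**Figure D3:**
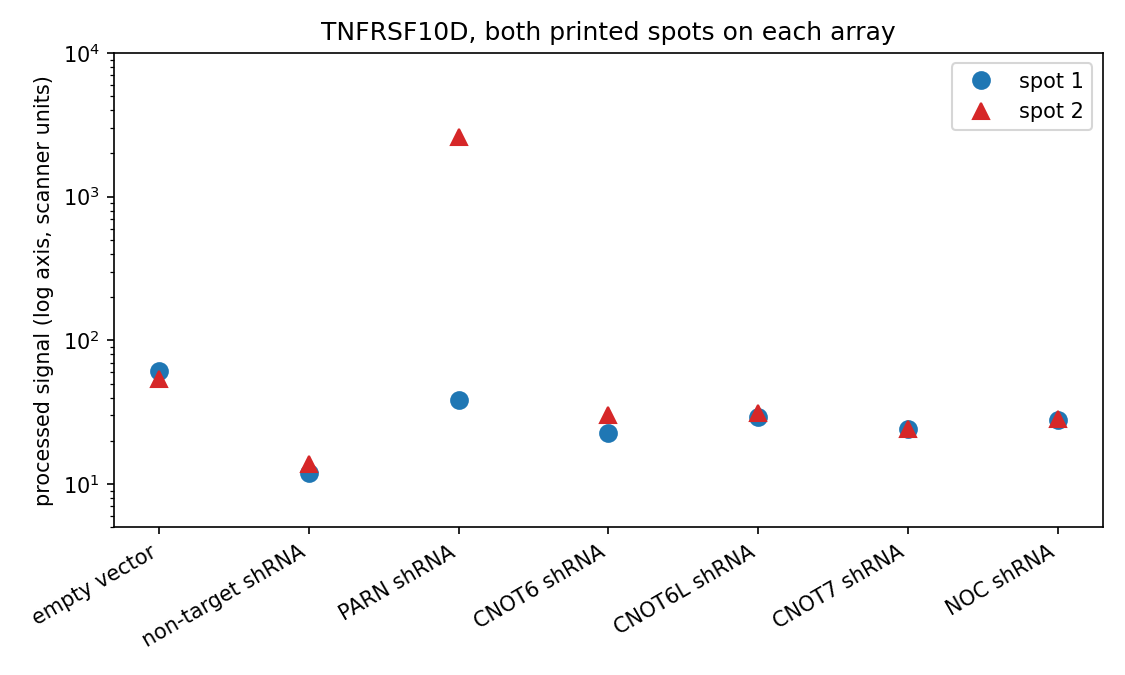
Processed signal (y axis, log scale, scanner units) of spot 1 (circles) and spot 2 (triangles) of TNFRSF10D on each array (x axis). Only spot 2 on the PARN shRNA array, at 2613, stands apart from the other 13 spots, which lie between 11.9 and 61.5.

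The gap between the spots was 6.08 log2 on the PARN shRNA array and 0.01 to 0.40 on the other 6 arrays. Among 7316 features with 2 spots on the PARN shRNA array the median gap was 0.10, a gap of 3 or more was seen for 28, of 5 or more for 3, and of this size for 1, which was TNFRSF10D. Gaps of at least this size were also seen for 2 features on the non-target array. The empty-vector, CNOT6, CNOT6L and NOC shRNA arrays had 1 such feature each, and the CNOT7 shRNA array had 0. Neither spot carried an outlier mark or a saturation mark on any array. The recorded spot width, however, was 21.68 for spot 2 with PARN shRNA, and at least 26.22 for every other TNFRSF10D spot. The local background beside spot 2 was 29.0 with PARN shRNA and 21.0 to 27.0 on the empty-vector, non-target, CNOT6 shRNA, CNOT7 shRNA and NOC shRNA arrays, and 29.0 with CNOT6L shRNA. The 24 spots around spot 2 on the PARN shRNA array deviated from their median on the other arrays by -0.04 (median, log2), with a lowest deviation of -1.44 and a highest of 2.43. The highest was a control spot, with a processed signal of 606.8 with PARN shRNA and 16.4 to 225.4 on the other arrays. A gene spot directly beside spot 2 had 2005.5 with PARN shRNA and 364.5 to 1299.1 on the other arrays. With spot 1 alone the PARN shRNA difference from the mean of the controls was 0.84 and the feature was not called, and with spot 2 alone it was 6.91. Among the features that could be named no other was for TNFRSF10D, and what set spot 2 apart was not tested.

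**Figure D4:**
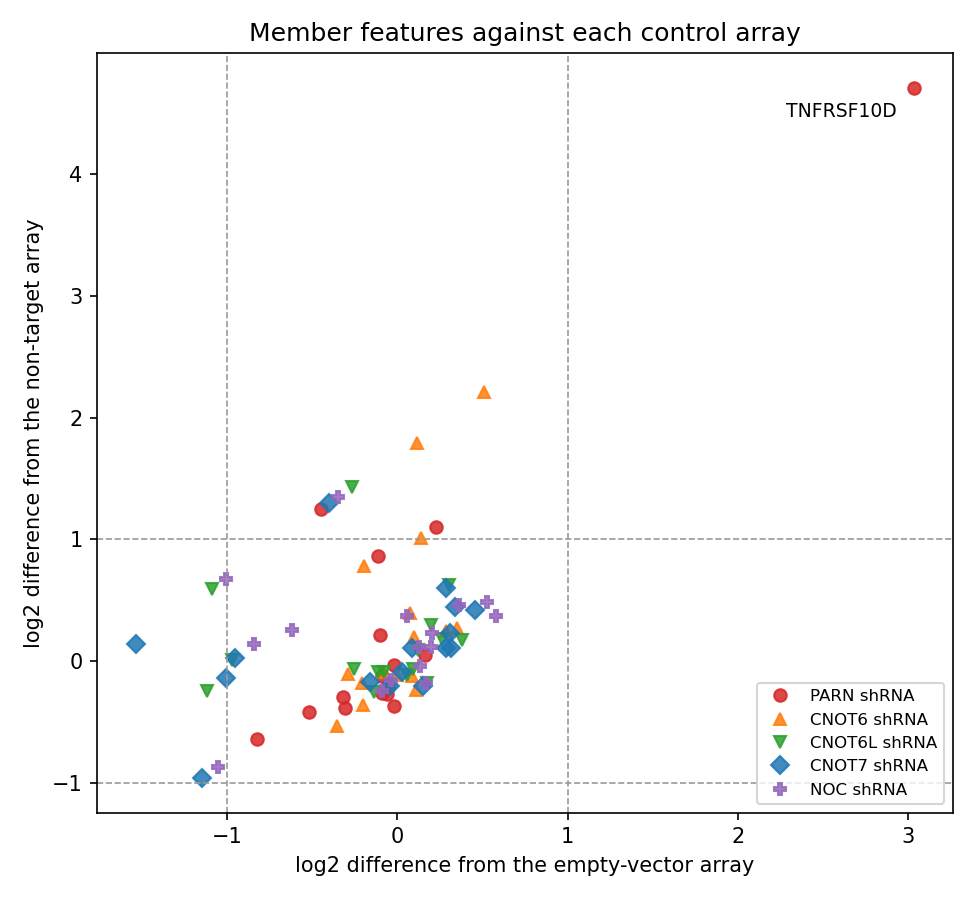
Log2 difference of each feature from the empty-vector array (x axis) and from the non-target array (y axis), with 1 symbol per shRNA and dashed lines at a 2-fold difference. TNFRSF10D with PARN shRNA, at 3.03 and 4.71, is alone in the upper right corner, and no feature lies in the lower left corner.

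TNFSF10, which encodes TRAIL, was higher than both controls on 4 shRNA arrays by its feature on 10 spots (A_23_P121253), although without scaling the CNOT6 shRNA difference from the mean of the controls turned to -0.74. The level was -2.56 with empty vector, -2.53 with non-target shRNA, -2.65 with PARN shRNA, -2.28 with CNOT6 shRNA, -2.44 with CNOT6L shRNA, -2.11 with CNOT7 shRNA and -2.04 with NOC shRNA. The controls differed by 0.03, and the SD among spots was 0.03 to 0.07 on every array. The NOC shRNA array stood at 142% of the mean of the controls, the CNOT7 shRNA array at 135% and the CNOT6 shRNA array at 120%. The spots with NOC shRNA covered -2.11 to -1.97 and those with CNOT7 shRNA -2.17 to -2.06, all above the highest control spot at -2.42. Spots of the PARN shRNA array, from -2.71 to -2.60, overlapped those of both controls.

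A second TNFSF10 feature on 1 spot (A_33_P3226810) matched this order only in part. Its level was -2.55 with empty vector, -2.57 with non-target shRNA, -2.87 with PARN shRNA, -2.76 with CNOT6 shRNA, -2.66 with CNOT6L shRNA, -2.46 with CNOT7 shRNA and -2.35 with NOC shRNA. The NOC and CNOT7 shRNA arrays were again highest, by 0.21 and 0.10 over the mean of the controls, and the PARN shRNA array again lowest, at 80.8%. The CNOT6 and CNOT6L shRNA arrays were below both controls by this feature and above both by the other. The NOC and CNOT7 shRNA arrays were above the mean of the controls by both features under quantile normalization and normexp correction. Leaving out scaling raises all features of these arrays and was no check. Both arrays lie in the slide row without controls. Against the mean of its row mates, the NOC shRNA array differed by 0.24 and 0.22 for the features on 10 spots and on 1 spot.

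FADD, the adaptor that links the receptors to the caspases, was not called at the chosen scaling. Its level was 2.83 with empty vector, 3.01 with non-target shRNA, 2.74 with PARN shRNA, 2.48 with CNOT6 shRNA, 2.89 with CNOT6L shRNA, 3.12 with CNOT7 shRNA and 2.97 with NOC shRNA. The CNOT6 shRNA array was lowest, at 73.7% of the mean of the controls. It differed from that mean by -0.44 at the chosen scaling, by -0.48 with quantile normalization and by -0.43 with normexp correction. Without scaling it differed by -1.45 and was called lower, but that setting shifts all features of this array by -1.005. The controls differed by 0.18 and the SD between spots was at most 0.11. The other 4 shRNA arrays were within 0.20 of the mean of the controls.

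CASP8, the main initiator caspase of the pathway, was above both controls on 4 shRNA arrays. Its level was -1.54 with empty vector, -1.86 with non-target shRNA, -1.64 with PARN shRNA, -1.46 with CNOT6 shRNA, -1.23 with CNOT6L shRNA, -1.25 with CNOT7 shRNA and -1.48 with NOC shRNA. The CNOT6L and CNOT7 shRNA arrays were highest, at 138% and 136% of the mean of the controls, and the PARN shRNA array lay between the controls. The controls differed by 0.32, more than the 0.30 by which the CNOT6L shRNA array exceeded the empty-vector array. Without scaling the CNOT6 shRNA difference turned to -0.77 and that of PARN shRNA to -0.27.

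CASP10, the initiator caspase closest to CASP8, had 4 features, of which 1 and 4 divided the arrays alike while feature 3 did not. Feature 3 (A_33_P3383283, 1 spot) had a level of 2.72 with empty vector, 2.88 with non-target shRNA, 2.67 with PARN shRNA, 2.52 with CNOT6 shRNA, 2.82 with CNOT6L shRNA, 2.68 with CNOT7 shRNA and 2.63 with NOC shRNA. Its highest and lowest arrays were the non-target and CNOT6 shRNA arrays, and the CNOT6 shRNA array stood at 82.2% of the mean of the controls. Feature 4 (A_33_P3504659, 2 spots) had a level of -3.93 with empty vector, -4.91 with non-target shRNA, -4.04 with PARN shRNA, -4.13 with CNOT6 shRNA, -4.90 with CNOT6L shRNA, -4.88 with CNOT7 shRNA and -4.77 with NOC shRNA. By this feature the empty-vector, PARN and CNOT6 shRNA arrays formed a higher set and the other 4 a lower set, with no overlap and with a control in each.

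CASP10 feature 1 (A_24_P3045, 1 spot) showed these sets too. Its level was -5.72 with empty vector, -6.59 with non-target shRNA, -5.49 with PARN shRNA, -5.58 with CNOT6 shRNA, -6.84 with CNOT6L shRNA, -6.73 with CNOT7 shRNA and -6.34 with NOC shRNA. The PARN and CNOT6 shRNA arrays were at least 2-fold above the non-target array and within 0.23 of the empty-vector array. The CNOT6L and CNOT7 shRNA arrays were at least 2-fold below the empty-vector array and within 0.25 of the non-target array. These 4 arrays kept 1 direction against both controls, and the choice of control decided whether the 2-fold limit was passed. Feature 2 (A_33_P3255075, 2 spots) was above background on the empty-vector and CNOT6 shRNA arrays only, at -7.65 and -7.14. The means of both TNFRSF10D spots divided the arrays in the same way as CASP10 features 1 and 4, with the empty-vector, PARN and CNOT6 shRNA arrays higher than the other 4. The TNFRSF10D mean with PARN shRNA holds the bright spot 2, though spot 1 alone gave this division on the level scale. TNFRSF11B and other genes of the wider list described below divided the arrays likewise, so the split is not particular to CASP10 and TNFRSF10D. Without scaling, the CNOT6 shRNA differences from the mean of the controls turned to -0.43 and -0.71 for CASP10 features 1 and 4 and to -0.05 for TNFRSF10D. What these arrays share was not tested.

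**Figure D5:**
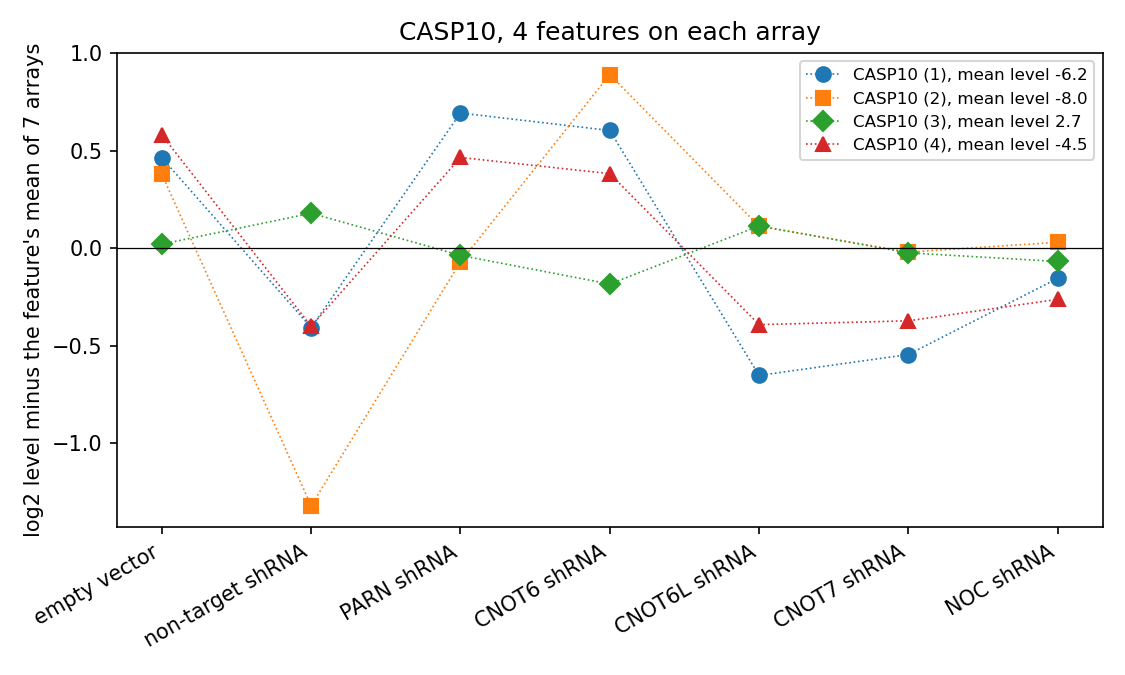
Log2 level of the 4 CASP10 features on each array (x axis), minus the mean of the feature over the 7 arrays (y axis); the legend gives that mean. Features 1 and 4 are above their mean on the empty-vector, PARN and CNOT6 shRNA arrays and below it on the other 4, and the bright feature 3 stays within 0.20 of its mean. Feature 2 is above background on the empty-vector and CNOT6 shRNA arrays only, so its other points are only bounds, and they enter its mean.

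CFLAR, which encodes the inhibitor c-FLIP, was nearly level across the arrays. Its first feature (A_23_P209394, 2 spots) had a level of -0.86 with empty vector, -0.51 with non-target shRNA, -0.88 with PARN shRNA, -0.75 with CNOT6 shRNA, -0.69 with CNOT6L shRNA, -0.71 with CNOT7 shRNA and -0.69 with NOC shRNA. Of the shRNA arrays, 4 lay between the controls, which differed by 0.35, and the PARN shRNA array differed by -0.02 from the empty-vector array. The second feature (A_24_P120115, 2 spots) had a level of -2.81 with empty vector, -2.80 with non-target shRNA, -2.83 with PARN shRNA, -2.89 with CNOT6 shRNA, -2.88 with CNOT6L shRNA, -2.96 with CNOT7 shRNA and -2.68 with NOC shRNA. Its shRNA arrays were within 0.17 of the mean of the controls. The SD between its 2 spots was up to 0.10, so that most of these differences were of the size of the printing error.

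How far the controls differed from each other depended on the brightness of a feature, and this bears on the dim genes. With all features divided by mean signal into 4 groups of equal size, the controls differed at least 2-fold for 33.8% of the dimmest group, 22.9% of the next, 7.51% of the next and 1.77% of the brightest. The dimmest group held 6 of the 17 features, for CASP10, FAS, TNFRSF10C and TNFRSF10D. The brightest held 3, for CASP10, FADD and TNFRSF10B.

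The contrast tested set the 5 shRNA arrays against the 2 controls, with the spread among unlike shRNAs and unlike control plasmids as its error. Fitted with limma over 38084 features, it called 0% of them at an adjusted p under 0.05, with 1432 at an unadjusted p under 0.05. Of the 15 features of the other 9 genes that entered the fit, none was called and none had an unadjusted p under 0.05. CASP8 had the lowest, with a difference of 0.28 (SE 0.17), a limma p of 0.127 and an adjusted p of 1. TNFSF10 differed by 0.24 (SE 0.20) by its feature on 10 spots and by -0.06 (SE 0.19) by the other, and TNFRSF10B by 0.15 (SE 0.17). TNFRSF10C differed by -0.62 (SE 0.44). A p above the threshold does not show that these levels were alike.

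A wider list of 41 genes of the same pathway was examined, of which 40 had a feature, each represented by its brightest. It held other death receptors and their ligands, partners of the signalling complex, the mitochondrial arm, and executioner caspases with their inhibitors. None of the 40 was called higher with any shRNA, and 1 was called lower with CNOT6L shRNA and with CNOT7 shRNA, where 1.01% and 1.35% of all features were called in either direction. A count of 1 in 40 is near these shares. This was BIRC3, which encodes the ubiquitin ligase c-IAP2, an inhibitor of death receptor signalling. Its level was -2.04 with empty vector, -1.93 with non-target shRNA, -2.10 with PARN shRNA, -1.89 with CNOT6 shRNA, -3.14 with CNOT6L shRNA, -3.05 with CNOT7 shRNA and -2.77 with NOC shRNA. The CNOT6L shRNA array differed by -1.10 from the empty-vector array and by -1.21 from the non-target array. The CNOT7 shRNA array was just past the 2-fold limit against the empty-vector array and differed by -1.11 from the non-target array. The 3 lowest arrays are those of the slide row without controls. The median difference of the 40 genes from the mean of the controls was 0.01 with PARN shRNA, 0.03 with CNOT6 shRNA, -0.02 with CNOT6L shRNA, 0.03 with CNOT7 shRNA and 0.04 with NOC shRNA, beside medians of -0.01, 0.12, -0.04, -0.10 and -0.09 over all features.

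For the 10 genes themselves, each by its brightest feature, the median difference was -0.15 with PARN shRNA, -0.04 with CNOT6 shRNA, 0.01 with CNOT6L shRNA, 0.09 with CNOT7 shRNA and 0.02 with NOC shRNA. These stand beside the same medians over all features, and the order of the shRNAs by median depends on whether those are subtracted.

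Of the wider list, 3 genes are given because their proteins bind, or are cleaved by, proteins of the 10 genes, and were picked after their values had been seen. FASLG, the ligand of FAS, had a level of -5.22 with empty vector, -7.41 with non-target shRNA, -6.37 with PARN shRNA, -5.60 with CNOT6 shRNA, -5.66 with CNOT6L shRNA, -5.84 with CNOT7 shRNA and -5.88 with NOC shRNA. All 5 shRNA arrays lay between the controls. TNFRSF11B (osteoprotegerin, a secreted protein that binds TRAIL) had a level of -1.64 with empty vector, -2.20 with non-target shRNA, -1.83 with PARN shRNA, -1.68 with CNOT6 shRNA, -3.09 with CNOT6L shRNA, -2.30 with CNOT7 shRNA and -2.45 with NOC shRNA. The CNOT6L shRNA array was lowest and, being less than 2-fold below the non-target array, was not called. BID, which caspase-8 cleaves to engage the mitochondria, had a level of 1.72 with empty vector, 1.95 with non-target shRNA, 1.41 with PARN shRNA, 1.84 with CNOT6 shRNA, 2.26 with CNOT6L shRNA, 2.44 with CNOT7 shRNA and 2.26 with NOC shRNA. For BID the PARN shRNA array was below both controls and the 3 arrays of the other slide row above both.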

How the data were processed

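Total RNA of 7 NCI-H520 cultures was measured on single-colour Agilent arrays, 1 per group, with groups taken from the labels. Per the file headers and the submitters' processing notes, the authors' scanner files came from Agilent Feature Extraction 10.7.3.1 with an intensity for each of 62976 spots, given as a background-subtracted processed signal. In the deposited series table the values were log2, shifted per array and centred on the 7 arrays. Its differences equalled those of log2 processed signals within 0.001, apart from 1 shift per array, for 100% of features above background on all arrays. For the levels, control spots and spots marked as outliers were left out, spots of 1 feature were averaged on the log2 scale, and the 75th percentile of the array was subtracted. The spots around those of TNFRSF10D were taken with control spots included. A feature was above background where 50% or more of its spots bore that mark. A dimmer side not above background was raised, where lower, to the lowest level of any feature above background there.

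Symbols came from a RefSeq gene table (assembly GRCh38.p14, names and gene order only), and that of CNOT6 from the labels' accession after restoring a leading zero. The members and lists were chosen with earlier results of these data known. Genes named are the 10 genes with every feature, the targeted genes, and genes of the wider list whose brightest feature was called. Outside this rule, cell type markers are named as a check, and FASLG, TNFRSF11B and BID were picked after their values were seen. The 5 shRNA arrays were compared with the 2 controls by limma 3.58.1 in R 4.3.3 (lmFit, eBayes with a trend, two-sided, Benjamini-Hochberg threshold 0.05) over features above background on at least 2 arrays. TNFRSF10D, whose value helped to choose the genes, was given no p. Scripts were tested on simulated data. Alternatives covered scaling, background correction (normexp, offset 50), single spots, outlier spots, the fold threshold, each control alone, left-out arrays and the series table. The number of arrays limits the precision, and nothing in the labels names separate cultures. Untransfected cells and the other cell line were not analysed here.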

Additional observations from a re-analysis of the deposited data

Results flagged for a closer look

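Among the 5 shRNA arrays, the level of FAS by its feature on 10 spots was set apart on the PARN shRNA array. The gap from that array to the nearest of the other 4 was 0.771 of the whole range of the 5 arrays, past the limit for 5 values in Dixon's test. These 5 arrays carry different shRNAs and are not replicates, and chance alone gives such a gap in about 1 in 20 groups, while 14 features were examined. The 14 include that of TNFRSF10D, whose value helped to choose the genes, so its gap there is no test. With normexp background correction the PARN shRNA array was at the mean of the controls (0.00).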

How the results depend on the processing

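For PARN shRNA, 1 of the 17 features was called. This became 0 with the first spot alone and 2 with the non-target array as the only control, which added CASP10. With limma on the lone array, where the controls form 1 arm and the shRNA array is assumed to vary like them, 0 of the 15 features other than that of TNFRSF10D were called for PARN shRNA and for each other shRNA. For CNOT6 shRNA the count of 0 became 2 without scaling (FADD and CASP10, both lower) and 3 with the non-target array alone. For CNOT6L shRNA it became 2, for CNOT7 shRNA 3 and for NOC shRNA 2 with the empty-vector array alone, and it became 1 for CNOT7 and for NOC shRNA with the second spot alone, in both cases TNFRSF10C. The TNFRSF10D difference of 3.87 with PARN shRNA became 0.84 with the first spot alone and 6.91 with the second. No scaling shifted the median of all features by -1.005 with CNOT6 shRNA, the lowest, up to 0.53 with CNOT7 shRNA, the highest. Of 84 differences of single features from the mean of the controls, 27 changed sign without scaling, 18 with normexp correction and 8 with quantile normalization. With limma on 5 shRNA arrays against 2 controls, leaving out each array in turn called 0 to 63 features of all, the most without the empty-vector array, and 0 of the 15 tested here. No other named feature was for TNFRSF10D, so that alternative could not be run. No paired analysis was possible because each group has 1 array.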
